A study of Mus musculus with 4 samples.

Results

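The genes described here are 32 genes of the postsynaptic side of the synapse, taken by symbol from an RNA sequencing table of 24341 genes. They comprise 11 scaffold genes, 3 neuroligins, 4 AMPA, 5 NMDA and 2 kainate receptor subunits, 1 GABA-A receptor subunit, 4 nicotinic receptor subunits and 2 subunits of the kinase CaMKII. All 32 symbols were found in the table. Of these, 17 reached an average level of 1 FPKM across the libraries and were tested, and 15 lay under that limit and are given by their levels. FPKM is a fragment count corrected for transcript length and for library size, so that levels can be set side by side between genes.

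The cells were CAD cells (Cath.-a-differentiated), a mouse cell line of catecholaminergic neuronal origin that extends processes when serum is withdrawn. In the ACSS2i group, cells without serum for 5 days received for 24 h a quinoxaline urea compound (20 µM) that inhibits ACSS2, an enzyme that makes acetyl-CoA from acetate. In the DMSO group, cells without serum for 5 days received the solvent for 24 h. Each group had 2 libraries, and the labels do not say whether they came from separate cultures, so p-values here reflect only how far these libraries differ, and that spread may be technical. The model is a single cell line at a single dose and time, and the labels name no other cells in the cultures that could supply presynaptic partners.

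A postsynaptic site is built around scaffold proteins that hold receptors in the membrane and tie them to signalling enzymes. Membrane-associated guanylate kinases of the PSD-95 family (Dlg genes) bind receptor and neuroligin tails through PDZ domains, Dlgap proteins join them to Shank, and Shank binds Homer. Neuroligins reach across the cleft to presynaptic neurexins, and ionotropic receptors are assembled from several subunits, some of which are obligatory. Neurons of catecholaminergic and sympathetic type are driven largely through nicotinic acetylcholine receptors.

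The values of the 4 libraries were comparable in sum, at 558458 and 675716 FPKM in the ACSS2i libraries and 590549 and 590108 FPKM in the DMSO libraries. Their depth, read from the spacing of the lowest values relative to DMSO replicate 1, was 0.675 and 0.857 in the ACSS2i libraries and 1 and 0.292 in the DMSO libraries, so that a low value in DMSO replicate 2 rests on the fewest reads. Acss2 itself, whose protein the compound targets, was at 12.8 and 26.6 FPKM in ACSS2i and 11.7 and 10.04 FPKM in DMSO. The catecholamine enzyme gene Th was at 4.09 and 2.92 FPKM in ACSS2i and 3.53 and 3.16 FPKM in DMSO. The 11 fixed catecholaminergic and neuronal markers were all tested, and their median log2 difference from the DMSO mean was -0.70 in ACSS2i replicate 1 and 0.15 in ACSS2i replicate 2, against 0.046 and -0.046 in the DMSO libraries. Markers of other cells were low. The summed level of 5 astrocyte markers was 0.466 and 1.04 FPKM in ACSS2i and 0.202 and 0.423 FPKM in DMSO, and that of 5 microglial markers was 0.446 and 0.203 FPKM in ACSS2i and 0.542 and 0.05 FPKM in DMSO. Of 5 fibroblast markers, summing to 0.418 and 0.497 FPKM in ACSS2i and 0.579 and 0.679 FPKM in DMSO, the collagens Col1a2 and Col3a1 were at the table's floor of 0.01 FPKM throughout. The 5 oligodendrocyte markers summed to 4.45 and 5.22 FPKM in ACSS2i and 5.05 and 4.87 FPKM in DMSO, with Mag at the floor throughout. The vesicular glutamate transporter Slc17a6 was also at the floor in all 4 libraries, and the 3 GABAergic markers summed to 0.165 and 0.386 FPKM in ACSS2i and 0.380 and 0.520 FPKM in DMSO. The 6 cell division markers differed in level between the groups, summing to 57.0 and 126 FPKM in ACSS2i and 4.81 and 11.5 FPKM in DMSO, and all 6, Mki67 and Top2a among them, lay higher in both ACSS2i libraries than in both DMSO libraries, as did 19.0% of all tested genes. None of the 6 passed the adjusted threshold (limma, adjusted p from 0.319 to 0.494). All 6 had an unadjusted p under 0.05, as did 6.96% of all tested genes. The part of these 6 markers in the differences given below was not tested. In bulk RNA, fewer cells of a type and less RNA per cell cannot be told apart.

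The stretches of DNA before the start of 4 genes are shown because 2 of them belong to members that lay lower in both inhibitor libraries (Nlgn2 and Chrnb2) and 2 to AMPA receptor subunits that differ in level (Gria2, expressed, and Gria4, close to the floor). Each is the 250 bases before the RefSeq start in build GRCm38.p6, which is the mm10 assembly, written 5′ to 3′ along the gene. Capitals mark a motif that was searched for. They were picked after the values had been seen.
Nlgn2, chr11:69837785-69838034, minus strand: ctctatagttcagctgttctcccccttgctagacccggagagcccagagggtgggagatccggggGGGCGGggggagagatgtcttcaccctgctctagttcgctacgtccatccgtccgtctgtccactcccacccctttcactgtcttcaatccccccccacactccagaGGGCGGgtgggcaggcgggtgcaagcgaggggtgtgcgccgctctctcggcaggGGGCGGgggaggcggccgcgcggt
Chrnb2, chr3:89764633-89764882, minus strand: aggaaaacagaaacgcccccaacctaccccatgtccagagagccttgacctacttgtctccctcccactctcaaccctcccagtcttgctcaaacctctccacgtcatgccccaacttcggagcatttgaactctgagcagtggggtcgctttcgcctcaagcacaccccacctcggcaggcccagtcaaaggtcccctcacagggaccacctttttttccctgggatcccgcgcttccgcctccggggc
Gria2, chr3:80802836-80803085, minus strand: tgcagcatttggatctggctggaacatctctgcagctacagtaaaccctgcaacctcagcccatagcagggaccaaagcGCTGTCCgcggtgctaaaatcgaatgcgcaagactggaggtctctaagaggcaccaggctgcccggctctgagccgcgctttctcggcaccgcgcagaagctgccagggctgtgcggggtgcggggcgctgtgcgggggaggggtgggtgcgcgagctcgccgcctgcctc
Gria4, chr9:4796235-4796484, minus strand: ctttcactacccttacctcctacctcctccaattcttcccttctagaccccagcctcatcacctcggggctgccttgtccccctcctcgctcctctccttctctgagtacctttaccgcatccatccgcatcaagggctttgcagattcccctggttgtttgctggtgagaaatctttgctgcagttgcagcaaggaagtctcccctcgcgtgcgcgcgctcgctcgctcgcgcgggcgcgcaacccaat

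The search used 7 motifs on both strands: the GC box GGGCGG, the TATA box TATAAA, the cAMP response element TGACGTCA, the Egr site GCGGGGGCG, the E-box CACGTG, and the left side TTCAGCACC and the right side GGACAGC of RE1, the element bound by the repressor REST in many neuronal genes. The GC box and the Egr site can overlap. Nlgn2 held 3 GC boxes and none of the other motifs. In Gria2 the capitals mark 1 right side of RE1, on the other strand. Chrnb2 and Gria4 held none of the 7 in this window. RefSeq promoters were at hand for 23 of the 32 genes, 36 promoters in all. A GC box stood in 43.5% of the 23 promoters of tested members and in 23.1% of the 13 promoters of members under the limit, against 58.9% of the 11164 promoters of all tested genes and 32.7% of all 32851 promoters. The right side of RE1 stood in 4.35% of the promoters of tested members, 7.69% of those of members under the limit, 6.32% of those of all tested genes and 5.28% of all promoters. These are matches of letters and not known sites, and the promoters of a gene are not independent of each other.

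Within most families the RNA came from few of the subunits, and the dominant one was the same in both groups. Dlg4, which encodes PSD-95 (chr11:70016942-70047522, plus strand), was the most abundant of the 32 genes, at 43.4 and 50.1 FPKM in ACSS2i and 49.9 and 60.4 FPKM in DMSO. It supplied 57.4% to 67.3% of the summed FPKM of Dlg1 to Dlg4. Next came the scaffold Dlgap4 with a mean of 28.6 FPKM over the 4 libraries, the kainate receptor subunit Grik5 with 22.8, Dlg1, which encodes SAP97, with 19.5, Homer1 with 13.7, the kinase subunit Camk2a with 11.9 and Nlgn2 with 10.2. The tested member closest to the limit was Camk2b with a mean of 1.28 FPKM, and the member closest under it was Nlgn3 with 0.655.

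**Figure D1:**
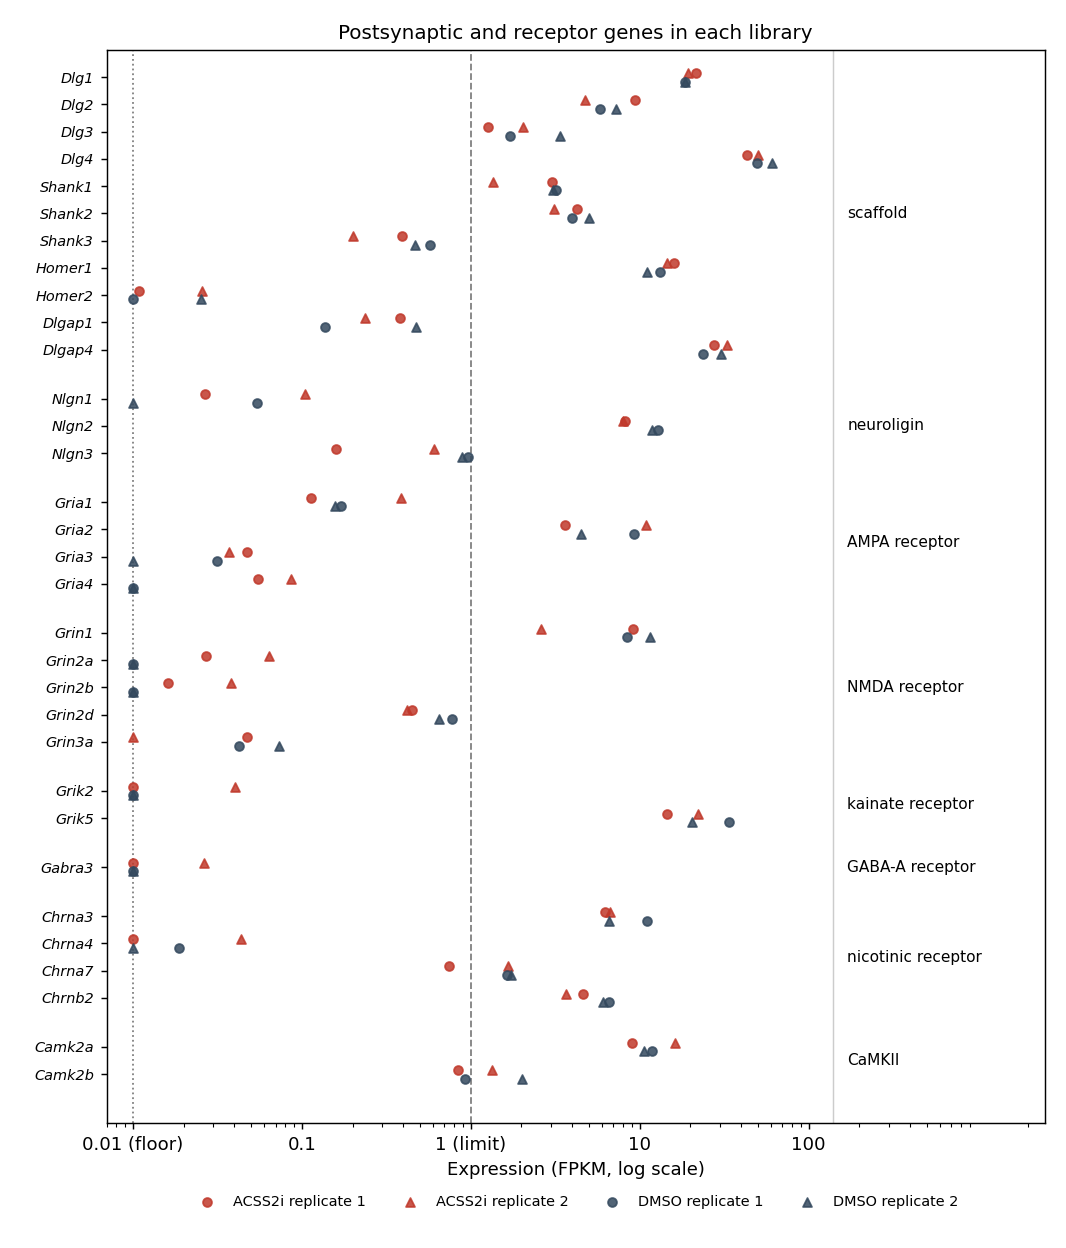
Expression of the 32 genes in each library, in FPKM on a log axis, with ACSS2i libraries in red above DMSO libraries in dark blue in each row (circles are replicate 1, triangles replicate 2). The dashed line is the limit of 1 FPKM for the mean and the dotted line the floor of 0.01 FPKM; Dlg4 lies farthest right and Gabra3 farthest left by mean.

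Receptor families were incomplete at the level of RNA. Among AMPA receptor subunits, Gria2, whose edited protein makes the channel nearly impermeable to calcium, held 94.3% to 97.8% of the family's FPKM. Among NMDA receptor subunits, the obligatory Grin1 held 69.2% to 89.4%, while the glutamate-binding partners were low: Grin2d was at 0.450 and 0.421 FPKM in ACSS2i and 0.778 and 0.651 FPKM in DMSO, and Grin2a and Grin2b were at the floor in both DMSO libraries. The kainate receptor subunit Grik5 held 99.4% to 99.9% of its family, although recombinant Grik5 protein needs a partner of the Grik1 to Grik3 group to form a working channel. Grik2 was at the floor and at 0.0404 FPKM in ACSS2i and at the floor in both DMSO libraries, and the family's other 3 genes, Grik1, Grik3 and Grik4, had means of 0.0144, 0.0240 and 0.0216 FPKM.

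Nicotinic receptor RNA came from Chrna3, with 44.9% to 56.1% of the FPKM of the 11 neuronal subunits, from Chrnb2 with 29.8% to 41.4%, and from Chrna7, which forms homomeric channels, with 6.35% to 13.6%. Chrna4, the usual partner of Chrnb2 in the brain, was at the floor and at 0.0437 FPKM in ACSS2i and at 0.0187 FPKM and the floor in DMSO. Chrnb4 and Chrna5, which lie beside Chrna3 in the genome and encode its usual partners in autonomic ganglia, had means of 0.0312 and 0.128 FPKM. Gabra3, an alpha subunit of GABA-A receptors, was above the floor in ACSS2i replicate 2 alone, at 0.0263 FPKM.

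Nlgn2, the neuroligin of inhibitory synapses, held 91.8% to 97.8% of neuroligin RNA, and Nlgn1, which is typical of excitatory synapses, had a mean of 0.0490 FPKM. Shank2 held 51.3% to 66.7% of the Shank family and Shank3 4.27% to 7.36%. Homer1 held 57.4% to 83.1% of the Homer family, the rest being almost entirely Homer3. In the CaMKII family, the broadly expressed Camk2g and Camk2d exceeded the neuronal Camk2a, which held 13.7% to 23.4%, and Camk2b held 1.28% to 3.36%.

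**Figure D2:**
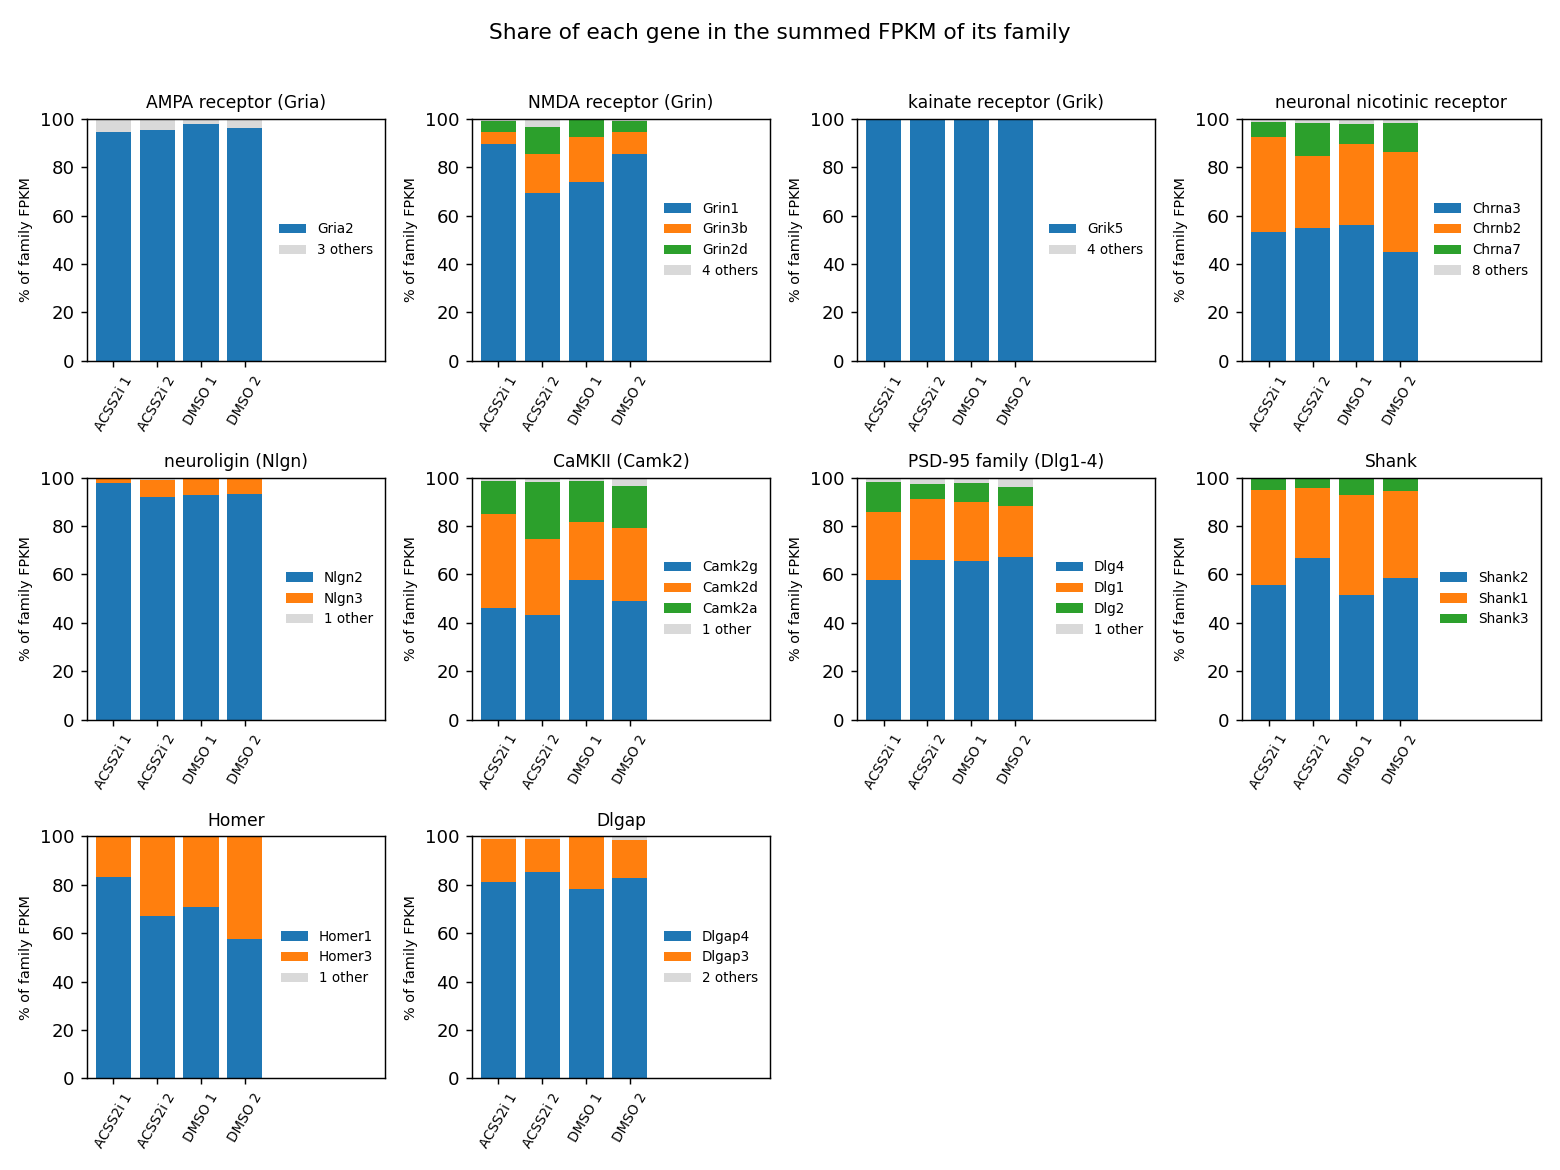
Share of each gene in the summed FPKM of its family, in percent, for each library of the families drawn, ACSS2i libraries left of DMSO libraries. Genes that reach 5% in any library are drawn apart and the rest are grey; Grik5, Gria2 and Nlgn2 fill nearly all of their families.

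The 15 members under the limit fell into 2 kinds. Shank3, Dlgap1, Nlgn3, Gria1 and Grin2d were above the floor in all 4 libraries, with means between 0.207 FPKM (Gria1) and 0.655 FPKM (Nlgn3). Nlgn3 was at 0.160 and 0.604 FPKM in ACSS2i and 0.970 and 0.888 FPKM in DMSO, Shank3 at 0.390 and 0.200 FPKM in ACSS2i and 0.572 and 0.471 FPKM in DMSO. The scaffold Dlgap1 was at 0.382 and 0.236 FPKM in ACSS2i and 0.137 and 0.477 FPKM in DMSO, and the AMPA receptor subunit Gria1 at 0.114 and 0.385 FPKM in ACSS2i and 0.172 and 0.158 FPKM in DMSO, both with overlap. Nlgn3 and Shank3, like Grin2d, lay lower in both ACSS2i libraries than in both DMSO libraries, as did 18.3% of all tested genes. The tested genes hold no member under the limit, so this share and the next come from genes at higher mean levels. The other 10 (Homer2, Nlgn1, Gria3, Gria4, Grin2a, Grin2b, Grin3a, Grik2, Gabra3 and Chrna4) had means of at most 0.0490 FPKM and stood at the floor in at least 1 library. Among these 10, Gria3, Gria4, Grin2a and Grin2b lay higher in both ACSS2i libraries than in both DMSO libraries, as did 19.0% of all tested genes. For Gria3 this order did not hold after correction for depth, as given next.

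Corrected for depth, the values of 8 of these 10 genes stood at whole multiples of a unit (within 2%), with 5 as the largest multiple. The other 2 were above the floor in 1 library. The unit was the lowest value of the gene except in Grin3a, which stood at 3 units in ACSS2i replicate 1 and at 4 and 2 units in the DMSO libraries. Grin2b, for instance, stood at 1 and 3 units in the ACSS2i libraries and at the floor in both DMSO libraries, and Gria4 at 1 and 2 units and at the floor. Gria3 stood at 1 unit in both ACSS2i libraries and in DMSO replicate 1, and at the floor in DMSO replicate 2. Corrected for depth, it thus did not differ between the ACSS2i libraries and DMSO replicate 1. If a unit is 1 read, these genes rest on a handful of reads. A common factor cannot be told apart, and the floor hides anything at or below 0.01 FPKM. The 3 subunits Gria4, Grin2a and Grin2b were above the floor in both ACSS2i libraries and listed at it in both DMSO libraries, and no fold change is given for them. Absence of these receptors from the cells was not shown at this depth.

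None of the 17 tested members could be separated from the spread between libraries. The test was limma's moderated test on log2(FPKM + 1), two-sided, with Benjamini-Hochberg adjustment over all 11486 tested genes and an adjusted p under 0.05 as the threshold, and log2 fold changes on this scale understate the change of genes at low FPKM. By this test 0 members were called, with adjusted p from 0.703 to 0.994, and across all genes 3 were called (0.0261%), 1 lower (0.00871%) and 2 higher (0.0174%) in ACSS2i. At an unadjusted p under 0.05 there was 1 member, Nlgn2, against 6.96% of all tested genes in either direction and 3.67% lower in ACSS2i. By limma without a mean-variance trend there were 0 members at either threshold. The unadjusted count was 3 without ACSS2i replicate 1 and 0 without any one of the other libraries. With libraries this few, the smallest p that exact permutation allows is 0.333.

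The tested members had a median log2 fold change of -0.23, with 12 of 17 negative (70.6%), where all tested genes had a median of 0.020 and 47.8% negative. Relative to the DMSO mean the members' median was -0.33 in ACSS2i replicate 1 and -0.17 in ACSS2i replicate 2. It was -0.095 without DMSO replicate 2, the shallowest library, and -0.34 without DMSO replicate 1. Both ACSS2i libraries lay below both DMSO libraries in 3 members (Shank1, Nlgn2 and Chrnb2), 17.6% against 18.3% of all tested genes, and above them in 2 (Dlg1 and Homer1), 11.8% against 19.0%. Without overlap in either direction were thus 5 members, against 37.3% of all tested genes. These shares lie close to or under those of the whole table. Every tested member had a mean of at least 1 FPKM in each group, the lowest being Camk2b in ACSS2i with 1.09 FPKM.

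**Figure D3:**
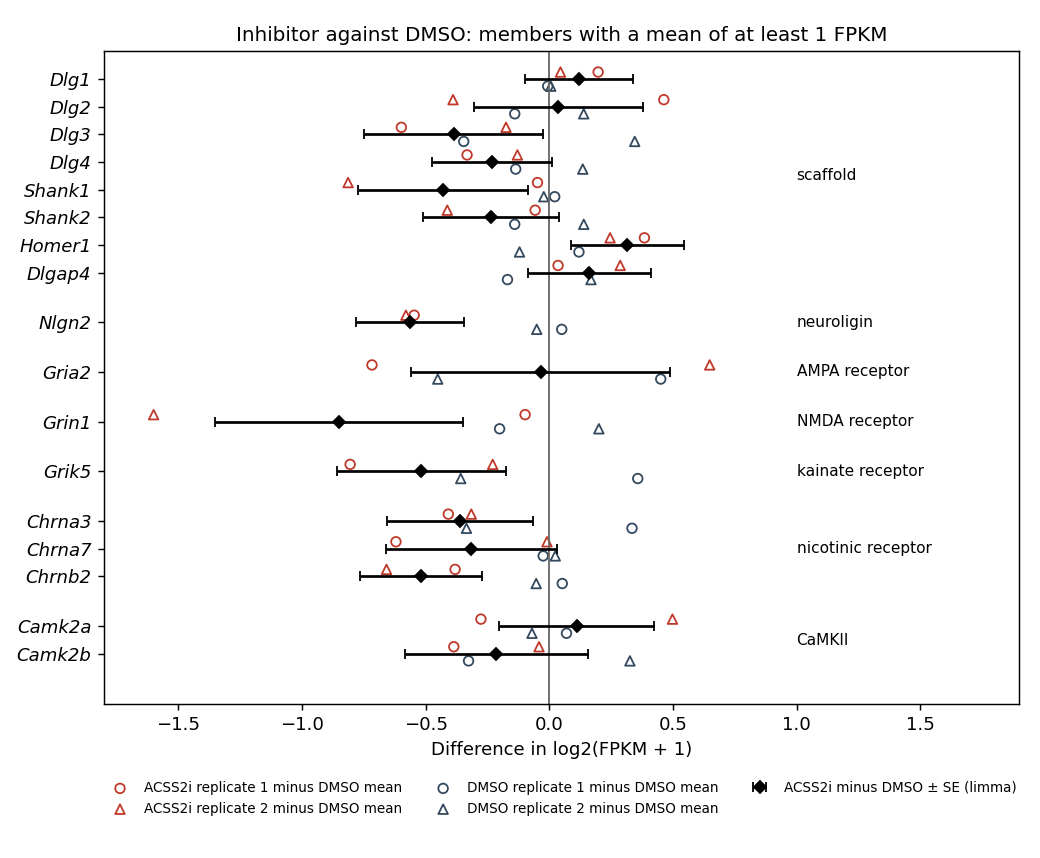
Difference in log2(FPKM + 1) for the 17 tested members, ACSS2i minus DMSO, with limma's SE (black), and each library relative to the DMSO mean (ACSS2i in red drawn above DMSO in blue). The red symbols of Nlgn2 and Chrnb2 lie together left of the blue ones, while those of Gria2 and Grin1 lie far apart.

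Among the neuroligins, Nlgn2 (chr11:69823122-69837784, minus strand) was the member with the lowest unadjusted p. It was at 8.16 and 7.95 FPKM in ACSS2i and 12.8 and 11.9 FPKM in DMSO, means of 8.05 ± 0.148 and 12.4 ± 0.662 FPKM (SD, n = 2 each). The groups did not overlap, and the log2 fold change was -0.56 ± 0.22 (SE; limma, adjusted p = 0.703). Its direction was the same whichever library was left out, and the estimate ran from -0.65 to -0.41 over all alternative settings.

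The tested ionotropic receptor subunits, 6 of 16, all had negative log2 fold changes, where 47.8% of all tested genes did. Their median was -0.44, and 0 passed. For Gria2 the direction changed between settings, as given below. Chrnb2, the beta subunit of the main high-affinity nicotinic receptors (chr3:89746195-89764632, minus strand), was at 4.65 and 3.66 FPKM in ACSS2i and 6.63 and 6.09 FPKM in DMSO, and the groups did not overlap (log2 fold change -0.52 ± 0.25, SE). An exon of Adar on the opposite strand overlaps it, and the strand used in counting is not given in the sources used here. Adar itself was at 13.7 and 9.70 FPKM in ACSS2i and 11.7 and 14.6 FPKM in DMSO, overlapping between the groups.

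Chrna3, the alpha subunit of ganglionic receptors (chr9:55010111-55026562, minus strand), was at 6.24 and 6.72 FPKM in ACSS2i and 11.1 and 6.62 FPKM in DMSO. One DMSO library was high and the other lay between the ACSS2i libraries, and the log2 fold change was -0.36 ± 0.30 (SE), or -0.027 without DMSO replicate 1. Chrna7 was at 0.748 and 1.67 FPKM in ACSS2i and 1.64 and 1.73 FPKM in DMSO. Here ACSS2i replicate 1 stood apart and the second ACSS2i library was level with DMSO.

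Grin1 (chr2:25291181-25319187, minus strand) had the largest difference of the 17 and one of the largest errors. It was at 9.18 and 2.59 FPKM in ACSS2i and 8.48 and 11.5 FPKM in DMSO (log2 fold change -0.85 ± 0.50, SE; limma, adjusted p = 0.804). Only ACSS2i replicate 2 was low, and without it the log2 fold change was -0.098. The antisense gene Grin1os, whose exons overlap those of Grin1, followed the same pattern at 3.19 and 1.20 FPKM in ACSS2i and 3.98 and 4.45 FPKM in DMSO, and reads of the pair may not have been kept apart.

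Grik5 (chr7:25009849-25072346, minus strand) was at 14.6 and 22.3 FPKM in ACSS2i and 34.0 and 20.3 FPKM in DMSO. The groups overlapped, since the second library of each group had nearly the same level (log2 fold change -0.52 ± 0.34, SE). Gria2 (chr3:80681450-80802835, minus strand) was at 3.60 and 10.8 FPKM in ACSS2i and 9.33 and 4.53 FPKM in DMSO. The libraries of each group lay far apart and the ranges overlapped, and the log2 fold change was -0.034 ± 0.52 (SE), with -0.72 without ACSS2i replicate 2 and 0.65 without ACSS2i replicate 1.

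The 8 tested scaffold genes split evenly, 4 with positive and 4 with negative log2 fold changes and a median of -0.097. Homer1 (chr13:93299635-93405129, plus strand), which links Shank to metabotropic receptors and calcium stores, was at 16.1 and 14.5 FPKM in ACSS2i and 13.2 and 11.02 FPKM in DMSO, without overlap (log2 fold change 0.32 ± 0.23, SE). Dlg1 (chr16:31663443-31875129, plus strand) was at 21.5 and 19.2 FPKM in ACSS2i and 18.5 and 18.7 FPKM in DMSO, also without overlap, though by a small margin (log2 fold change 0.12 ± 0.22, SE).

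Shank1 (chr7:44310253-44360572, plus strand), a master scaffold of the postsynaptic density, lay on the other side, at 3.02 and 1.36 FPKM in ACSS2i and 3.22 and 3.09 FPKM in DMSO (log2 fold change -0.43 ± 0.34, SE). Its first ACSS2i library was just under the DMSO libraries and the second far under them. Dlg4 had a log2 fold change of -0.23 ± 0.24 (SE), and the groups overlapped. Dlg2, which encodes PSD-93, was at 9.38 and 4.75 FPKM in ACSS2i and 5.84 and 7.30 FPKM in DMSO, so that the ACSS2i libraries enclosed the DMSO libraries. The groups also overlapped in the last 3 scaffolds. Dlg3, which encodes SAP102, was at 1.27 and 2.04 FPKM in ACSS2i and 1.70 and 3.36 FPKM in DMSO (log2 fold change -0.39). Shank2 was at 4.28 and 3.13 FPKM in ACSS2i and 3.99 and 5.05 FPKM in DMSO (log2 fold change -0.23), and Dlgap4 at 27.5 and 33.0 FPKM in ACSS2i and 23.8 and 30.3 FPKM in DMSO (log2 fold change 0.16). Exons of Shank1 and Dlgap4 overlap a gene on the opposite strand, 1700008O03Rik and 4930405A21Rik.

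For CaMKII, the kinase that is activated by calcium entry and held at the postsynaptic density, Camk2a was at 9.05 and 16.2 FPKM in ACSS2i and 11.8 and 10.6 FPKM in DMSO. The ACSS2i libraries again enclosed the DMSO libraries (log2 fold change 0.11 ± 0.31, SE). Camk2b was at 0.844 and 1.34 FPKM in ACSS2i and 0.922 and 2.02 FPKM in DMSO, with overlap and a log2 fold change of -0.21. The difference between scaffolds and receptor subunits is a description of these lists and was not tested.

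Other genes of the same classes were taken from 7 lists with 157 genes in the table, of which 41 reached the limit. Of the 41, 30 had negative log2 fold changes (73.2%, against 47.8% of all tested genes), the median was -0.26, and 0 were called by limma over all genes, with 4 at an unadjusted p under 0.05, where all tested genes had 6.96%. Both ACSS2i libraries lay below both DMSO libraries in 17 of them (41.5%, against 18.3% of all tested genes) and above in 6 (14.6%, against 19.0%).

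Other synaptic adhesion proteins, a list that also holds presynaptic partners, had 6 of 26 genes over the limit. All 6 were negative, against 47.8% of all tested genes, with a median of -0.73. In 5 of them both ACSS2i libraries lay below both DMSO libraries, against 18.3% of all tested genes. None of the 6 passed the adjusted threshold (limma). By the same test 3 had an unadjusted p under 0.05, against 6.96% of all tested genes. Ptprs, a receptor phosphatase that acts as a synaptic organiser, had the largest negative value. It was at 4.10 and 2.43 FPKM in ACSS2i and 7.34 and 7.71 FPKM in DMSO (log2 fold change -1.03 ± 0.29, SE; limma, adjusted p = 0.553). Cadm1 was the most abundant of the list, at 29.2 and 40.2 FPKM in ACSS2i and 46.9 and 44.3 FPKM in DMSO (log2 fold change -0.40).

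Receptor auxiliary and assembly proteins had 9 of 24 genes over the limit, with a median of -0.34. Of these, 8 were negative, against 47.8% of all tested genes. Cacng3, a transmembrane AMPA receptor regulatory protein, was the exception and exceeded every member in mean level, at 79.3 and 102 FPKM in ACSS2i and 74.8 and 61.2 FPKM in DMSO, without overlap (log2 fold change 0.40 ± 0.26, SE). Its relative Cacng4 was at 2.87 and 3.69 FPKM in ACSS2i and 6.94 and 5.25 FPKM in DMSO (log2 fold change -0.72 ± 0.27, SE). The 2 genes of one family thus lay on opposite sides, and neither passed.

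**Figure D4:**
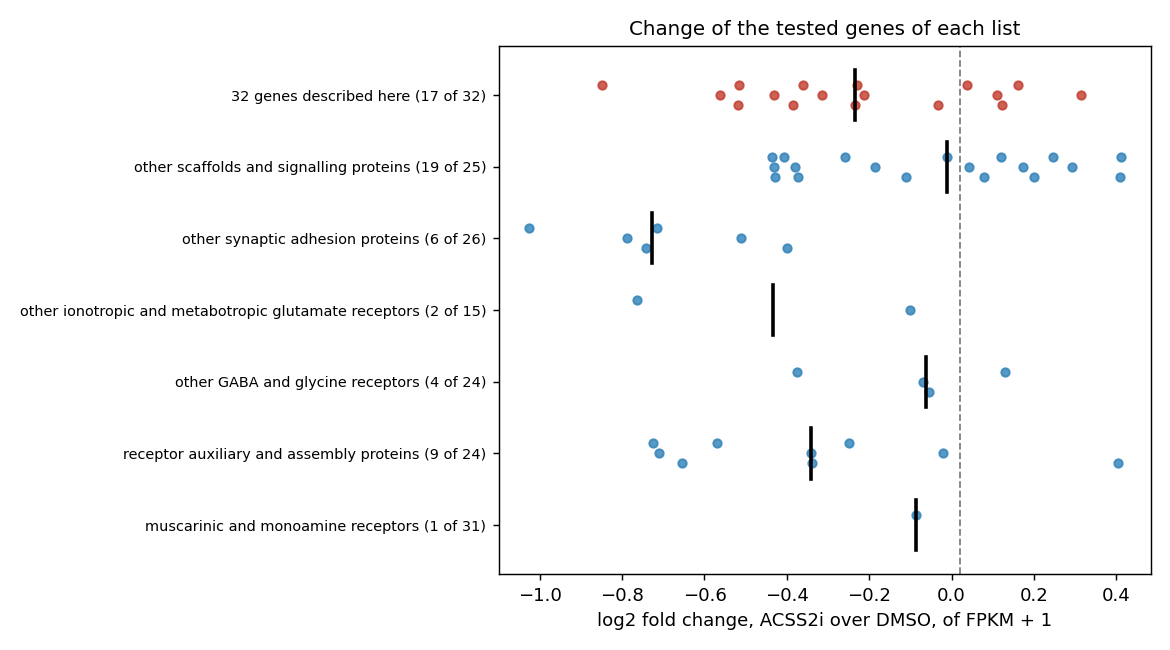
Log2 fold change of FPKM + 1, ACSS2i over DMSO, of the tested genes of each list, with the number tested of those in the table. Short black bars are medians and the dashed line is the median of all tested genes; all 6 adhesion genes and 8 of 9 auxiliary genes lie left of it.

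In the list of other scaffolds and signalling proteins 19 of 25 genes were over the limit, 9 positive and 10 negative, with a median of -0.012. Grip1, which binds AMPA receptor tails, was the most abundant at 36.8 and 38.8 FPKM in ACSS2i and 36.8 and 36.5 FPKM in DMSO. Gphn, the gephyrin scaffold of inhibitory synapses, had the largest positive value, at 27.2 and 36.0 FPKM in ACSS2i and 21.7 and 25.1 FPKM in DMSO (log2 fold change 0.41 ± 0.25, SE), and Tanc2 the largest negative (-0.44). For the inhibitory side, Gphn thus lay above DMSO where Nlgn2 lay below it, and neither was called.

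Few other receptors were over the limit. Of 15 other glutamate receptor genes 2 were, both negative. Grin3b, an NMDA receptor subunit, had the larger difference, at 0.536 and 0.603 FPKM in ACSS2i and 2.17 and 1.24 FPKM in DMSO (log2 fold change -0.76 ± 0.34, SE). Grin3b passed the limit through the DMSO libraries alone, so a lower ACSS2i level goes with its being in the test. Of 24 other GABA and glycine receptor genes 4 were tested, 3 negative, with Gabbr1 the most abundant at 23.1 and 21.7 FPKM in ACSS2i and 24.8 and 22.2 FPKM in DMSO, and with a log2 fold change of 0.13 for Gabrd. None of 12 other nicotinic receptor genes reached the limit, and the highest, the muscle subunit Chrnb1, was at 0.181 and 0.524 FPKM in ACSS2i and 1.35 and 1.12 FPKM in DMSO. Of 31 muscarinic and monoamine receptor genes 1 was tested, Chrm4 (log2 fold change -0.086).

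The members over and under the limit also differed in the length of the gene on the chromosome, in the GENCODE M21 annotation of GRCm38. The 17 tested members had a median span of 62.5 kb, from 14.7 kb (Nlgn2) to 1973 kb (Dlg2), and the 15 members under the limit a median of 278 kb, from 25.2 kb (Chrna4) to 906 kb (Nlgn1). Over all protein-coding genes the order was the other way round, with medians of 23.8 kb for 10521 tested genes and 12.4 kb for 9312 genes under the limit. Long members were not all low, since Dlg2, Shank2 (423 kb) and Dlg1 (212 kb) were expressed. The spans are a description of 32 chosen genes, with no test.

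**Figure D5:**
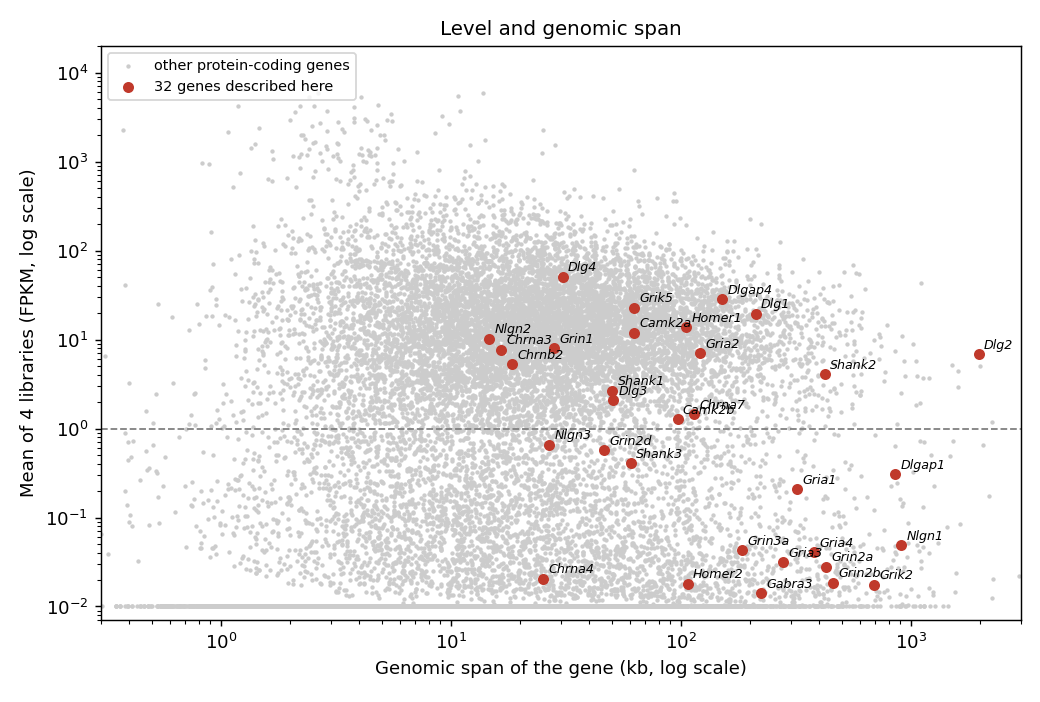
Mean FPKM over the 4 libraries against the genomic span of each gene in kb, both on log axes, for the 32 genes (red, named) and other protein-coding genes of the table (grey). The dashed line is the limit of 1 FPKM; Nlgn2, Chrna3 and Chrnb2 lie on the left above it, and Nlgn1 and Grik2 at the lower right.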

How the data were processed

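Gene expression was measured by RNA sequencing of polyadenylated RNA in 4 libraries of CAD cells, 2 given the inhibitor and 2 given DMSO. Libraries were made with a ScriptSeq v2 kit and shared a sequencing lane, per the labels' protocols. Cufflinks 2.2.1, Cuffdiff, STAR 2.3.0 and bcl2fastq 02.14.01.07 were used with the build mm10, per the submitters' processing notes. The deposited table, called adjusted, names no unit, and its values were taken as FPKM made by the authors with Cufflinks. What the adjustment was, the annotation and the strand setting are not given in the sources used here.

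Of 24341 genes, 1 with a value that is not a number was left out. The 11486 genes averaging 1 FPKM or more were fitted on log2(FPKM + 1) with limma 3.58.1 (R 4.3.3) with a mean-variance trend, tested on simulated data first. Depth was compared through the mode of each library's ratios to DMSO replicate 1 at values up to 0.5 FPKM. Tables were made with Python 3.11.15 and pandas 2.3.3. The members and lists were chosen with earlier results of these data known. All members were named, and of each wider list the gene with the highest mean and those with the largest positive and negative log2 fold change. A few of these are left out of the text. Alternatives were other pseudocounts, filters, scalings and variance models, leaving out each library and a replicate block.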

Additional observations from a re-analysis of the deposited data

How the results depend on the processing

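No member passed the adjusted threshold in any of 13 alternative settings, and 12 of the 17 tested members kept their direction in every setting in which they were tested. The number of genes called over the whole table, 3, was 6 with a pseudocount of 0.1, 0 with a pseudocount of 5, 0 without a filter, 0 with short RNA genes left out, and 13 to 26 when 1 library was left out, where the lone library is assumed to vary like the other group. With the replicate number as a block it was 8, and 0 members were called in the replicate block fit. Beyond shared replicate numbers the labels give no reason to pair the libraries, and the within-group differences of same-numbered libraries had r = -0.017 across genes. The members' median log2 fold change of -0.23 was -0.016 without a filter, where genes near the floor enter, and -0.34 to -0.095 when 1 library was left out. The number of negative members was 7 when an average of 5 FPKM was required, where fewer genes are tested. For the scaffolds the median of -0.097 was 0.12 under that stricter filter and -0.23 to 0.043 when 1 library was left out. For the nicotinic subunits the median of -0.36 was -0.54 with a pseudocount of 0.1, -0.25 with a pseudocount of 5, -0.45 with short RNA genes left out and -0.57 to -0.32 when 1 library was left out, lowest without DMSO replicate 2. Dlg2 changed direction to -0.041 with short RNA genes left out, and its values ran from -0.39 to 0.46 when 1 library was left out. Over the same fits Dlgap4 ran from -0.0074 to 0.33, Gria2 from -0.72 to 0.65, Camk2a from -0.28 to 0.50 and Camk2b from -0.54 to 0.11. The cause of these shifts was not tested. The depth of DMSO replicate 2, 0.292 of DMSO replicate 1, limits what can be said of members near the floor.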
